A study of Mus musculus with 32 samples.

Results

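The regions described here carried an HA-Ikaros peak in cells that had not been induced and no longer carried one after 2 h of induction. B3, a mouse pre-B cell line, had been transduced by retrovirus with an HA-tagged Ikaros carrying the ERt2 domain, and every group, 0 h included, carried this construct. HA-Ikaros, CHD4 and H3K27ac were mapped by chromatin immunoprecipitation and sequencing (ChIP-seq) in untreated cells (0 h) and after 30 min, 1 h and 2 h of 500 nM 4-hydroxytamoxifen (4-OHT), with 2 replicates for each target and time. The labels do not say whether the replicates were separate cultures, and whether the transduced line was 1 clone is not given in the sources used here. Peaks of the 8 HA-Ikaros lists that shared at least 1 bp were merged into 23856 regions. A region was called lost when it overlapped a peak in both 0 h lists and in neither 2 h list, which held for 857 regions, or 3.59% of all merged regions. The lost regions were chosen by the HA calls of these 4 lists, so their HA signal at 0 h and 2 h is given as a description. For comparison, 3999 retained regions (a peak in both 0 h and both 2 h lists) and 2860 gained regions (both 2 h lists and neither 0 h list) were taken from the same lists.

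Ikaros (IKZF1) is a zinc finger protein that B-cell and T-cell precursors need for their development, and it binds DNA at sites built around GGAA and GGGA. It associates with the NuRD complex, in which CHD4 is the chromatin remodelling subunit and HDAC1 and HDAC2 remove acetyl groups from histones. H3K27ac is the acetylation of lysine 27 on histone H3, which marks active promoters and enhancers. The ERt2 domain holds a fused protein in the cytoplasm until 4-OHT binds to it. Since the antibody was against HA, a peak in uninduced cells is a peak of the tagged protein or of background in that immunoprecipitation, and these cannot be told apart from the lists alone.

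The labelled cell type was checked against promoter acetylation at 0 h. Of 10 pre-B marker genes 9 had an H3K27ac peak within 1 kb of a transcription start site (TSS) in both 0 h libraries, among them Cd79a, Pax5, Ebf1, Vpreb1 and Igll1, and Rag1 did not. The same held for 1 of 6 T-cell markers (Cd3d), 0 of 6 myeloid markers and 1 of 4 erythroid markers (Klf1). Mean coverage, recovered from the fold and p of each peak, was 3.59 and 3.13 fragments per base in the HA libraries at 0 h, 1.98 to 2.54 at 30 min and 1 h, and 2.85 and 2.13 at 2 h. The uninduced HA libraries were thus the deepest. The peak caller had scaled the 0 h HA pileups by 0.947 and 0.862 and left those of the later HA libraries as they were, which the recovery took into account, and the part of this scaling in the calls was not tested. The H3K27ac libraries ranged from 3.75 to 4.34, and broad CHD4 lists give no depth. The lists held 5373 to 14874 HA peaks, 2488 to 9593 CHD4 peaks and 21468 to 33664 H3K27ac peaks. Absence from a list means only that no peak passed the threshold there, and does not show that the region was unbound.

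The strongest lost regions are shown first by their sequence, because Ikaros reads short DNA words and the words at the summit can be seen directly. Each sequence is the 0 h summit with 50 bases on either side, on the plus strand of mm10 (RefSeq GRCm38), with the core words GGAA and GGGA and their complements TTCC and TCCC in capitals. The 8 regions are those of highest mean fold rank at 0 h whose region did not touch a UTR, named by the nearest protein-coding gene, and the order is that of the rank.
Tnfrsf8, chr4:145367454-145367554: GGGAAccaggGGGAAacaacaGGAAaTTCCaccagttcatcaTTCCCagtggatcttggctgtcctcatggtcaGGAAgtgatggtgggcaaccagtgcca
Rpl3, chr15:80050124-80050224: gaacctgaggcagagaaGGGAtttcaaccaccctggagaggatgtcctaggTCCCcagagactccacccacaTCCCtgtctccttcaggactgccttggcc
Colgalt2, chr1:152461953-152462053: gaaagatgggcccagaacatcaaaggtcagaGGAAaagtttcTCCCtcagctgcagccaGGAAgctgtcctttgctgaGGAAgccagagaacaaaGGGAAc
Ccdc138, chr10:58544608-58544708: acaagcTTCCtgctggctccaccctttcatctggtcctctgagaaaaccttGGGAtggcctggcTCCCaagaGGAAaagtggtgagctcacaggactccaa
Rnf169, chr7:99973642-99973742: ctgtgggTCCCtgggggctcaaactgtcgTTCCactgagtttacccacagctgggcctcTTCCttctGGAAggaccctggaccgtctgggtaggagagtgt
Rbpms, chr8:33898240-33898340: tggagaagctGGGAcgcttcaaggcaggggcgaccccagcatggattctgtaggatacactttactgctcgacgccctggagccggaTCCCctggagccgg
Wdr25, chr12:108933955-108934055: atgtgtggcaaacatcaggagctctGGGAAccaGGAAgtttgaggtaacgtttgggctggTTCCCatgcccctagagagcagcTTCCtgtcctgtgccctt
Zfp46, chr4:136282871-136282971: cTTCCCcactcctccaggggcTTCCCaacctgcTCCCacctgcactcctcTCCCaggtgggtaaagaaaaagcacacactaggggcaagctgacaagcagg
The window near Tnfrsf8 held 9 core words, counted at every start so that a run of GGGAA gives both GGGA and GGAA. Those near Colgalt2, Wdr25 and Zfp46 held 6 each, and the window in Rbpms held 2. The same words with their letters reversed, a control of equal base composition, were as many or more in the windows of Rpl3 (6 against 3 core words), Rbpms (4 against 2) and Rnf169 (4 each).

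The lost regions were not the weakest peaks of the uninduced cells. Fold enrichment was ranked within each list as a percentile, 100 being the strongest peak. The mean 0 h fold rank of the lost regions had a median of 55.4 and a range from 0.576 to 99.9, and that of the retained regions a median of 60.5. When the 5734 regions called in both 0 h lists were cut into deciles by this rank, the lost regions made up 14.2% of the weakest decile, 17.5% of the second and 10.5% of the strongest. The summits of the lost regions held a median of 24 fragments in replicate 1 and 28 in replicate 2, against 27 and 31 in the retained regions. Lost regions were narrower, with a median width of 533 bp against 1367 bp, but a merged region grows with the number of lists that call it, so width is tied to the rule.

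**Figure D1:**
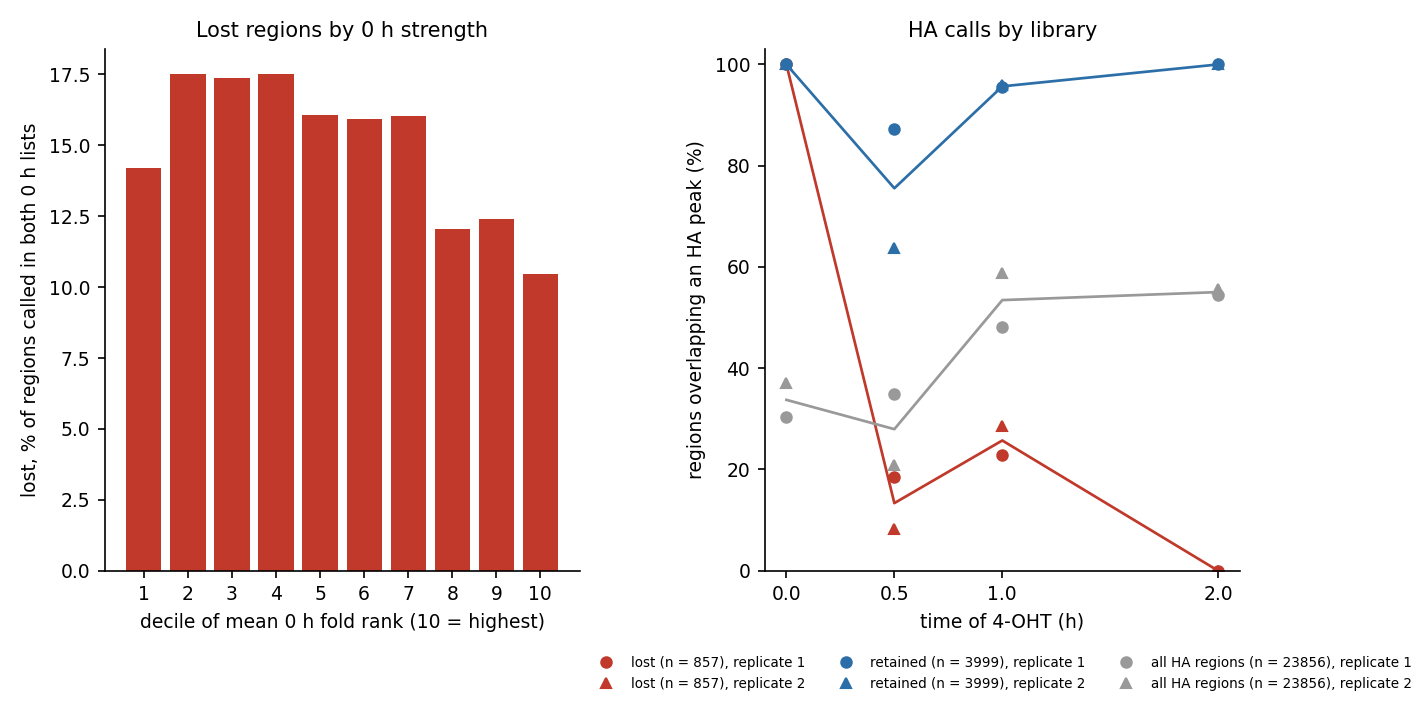
Left, lost regions as a percentage of the regions called in both 0 h lists, in deciles of the mean 0 h fold rank. Right, percentage of lost, retained and all merged regions overlapping an HA peak in each library against the time of 4-OHT in hours, with circles for replicate 1, triangles for replicate 2 and lines through the means of the 2. The bars lie between 10.5% and 17.5%, and the lost regions were called in 8.17% to 28.6% of cases at 30 min and 1 h, and the retained regions in 63.8% to 95.9%.

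The difference in depth between 0 h and 2 h was measured at each lost region. MACS2 computes the fold and the p of a narrow peak from the same fragment pileup and background, so both could be recovered. The 2 h libraries had 0.793 and 0.679 of the coverage of the 0 h libraries of the same number. Scaled by these ratios, the lost regions would have held a median of 19.0 fragments at the summit in either 2 h library, where the lowest peak called had 11 and 9 fragments. The scaled pileup and background of 842 of the 857 regions (98.2%) reached the lowest -log10 p of both 2 h lists, and the same held for 98.6% of the retained regions. With the 5th percentile of -log10 p of each 2 h list in place of its lowest value, 789 lost regions (92.1%) did so. The projection starts from the 0 h values that the rule used, and as nearly every region passes it in both groups it does not separate them. It also overstated the calls at 30 min, where 3801 of the 3999 retained regions passed it for both lists and 2380 were called in both. Passing the projection therefore does not show that a region would have been called at 2 h. The margin was moderate, since 291 lost regions (34.0%) in replicate 1 and 470 (54.8%) in replicate 2 had an expected count at least double the lowest count called.

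The strongest lost region lay on chr4:145367033-145367954, between genes and 52330 bp from the nearest protein-coding TSS, that of Tnfrsf8 (which encodes CD30). It held 110 and 154 fragments at 0 h, with folds of 23.9 and 36.2. Scaled to the 2 h coverage these would be 87.2 and 105 fragments, and neither 2 h list called it. A single list of the 4 in between did, replicate 1 at 1 h, with 17 fragments. The second, chr15:80049399-80051612, lay 29975 bp from the TSS of Rpl3, a ribosomal protein gene, and held 87 and 112 fragments at 0 h. It was called with 19 fragments in replicate 1 at 30 min and with 15 and 17 at 1 h. The third, chr1:152461471-152462520 in an intron of Colgalt2, a collagen galactosyltransferase gene, held 79 and 92 fragments at 0 h and 17 and 16 at 1 h, and was in neither 30 min list. The fourth, chr10:58544156-58544839 in an intron of Ccdc138, held 65 and 89 fragments at 0 h and was in no later list. The region in an intron of Rnf169, a ubiquitin ligase gene of the DNA damage response, was called at every time before 2 h, with 68 and 73 fragments at 0 h, 25 and 19 at 30 min and 17 and 18 at 1 h. Wherever one of the 10 strongest regions was called at 30 min or 1 h, its count was below both of its 0 h counts. The 10 were chosen for high 0 h ranks among regions absent at 2 h, so lower later counts follow in part from the choice. The counts are also not scaled for depth, which was highest at 0 h.

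**Figure D2:**
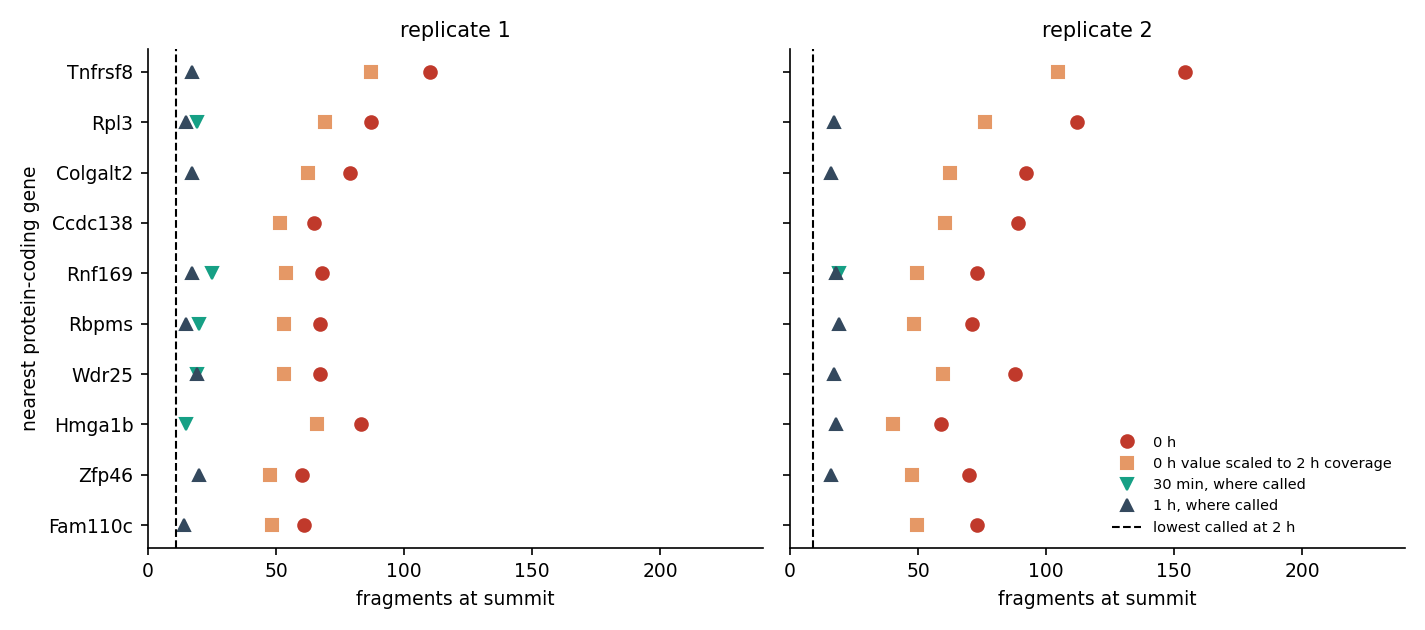
Fragments at the summit for the 10 lost regions of highest 0 h rank, by nearest protein-coding gene, in replicate 1 (left) and replicate 2 (right). Circles are 0 h, squares the 0 h value scaled to the coverage of the 2 h library, triangles 30 min (down) and 1 h (up) where a peak was called, and the dashed line the lowest count called at 2 h (11 and 9). Every square lies between 40.1 and 105 fragments, to the right of the line, which follows from the choice of the regions by their 0 h rank.

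HA calls at the lost regions were fewer at 30 min and 1 h than over the 5734 regions called in both 0 h lists, of which the lost regions are a part. The 30 min and 1 h lists were not used by the rule. Lost and retained regions are divided by their 2 h calls, however, so their difference at these times is not independent of the rule. A peak was called at 18.6% and 8.17% of the lost regions in the 2 libraries at 30 min and at 22.9% and 28.6% at 1 h. The retained regions were called in 87.3% and 63.8% of cases at 30 min and in 95.4% and 95.9% at 1 h, and the 5734 regions in 71.9% and 50.3% and in 80.5% and 82.3%. Both 30 min lists called 29 lost regions (3.38%, 95% exact binomial interval 2.28% to 4.82%, counting error only), where 45.1% of the 5734 and 15.7% of all merged regions were called. Both 1 h lists called 109 (12.7%, 10.6% to 15.1%), where 74.6% of the 5734 and 37.7% of all merged regions were called. The share over all merged regions is partly fixed by the merge, since some of them entered only through a 30 min or 1 h list. These counts depend on the lists used. With lists of equal length both 30 min lists called 154 of 1249 lost regions (12.3%), against 46.5% of the regions in both 0 h lists. Both 1 h lists then called 119 (9.53%), against 48.6%, so the higher share at 1 h than at 30 min depended on list length. With the lists of replicate 1 alone the rule gave 2083 regions, called in 28.5% of cases at 30 min and 37.0% at 1 h, against 66.1% and 75.6% of all regions in its 0 h list. With those of replicate 2 alone it gave 2613, called in 10.9% and 34.2%, against 40.6% and 73.7%. After scaling the 0 h values, which the rule used, for depth, 812 of the lost and 3801 of the retained regions would have reached the threshold of both 30 min lists. For both 1 h lists it was 96.6% and 97.2%. Both lists called 2380 retained regions (59.5%) at 30 min and 92.2% at 1 h, so fewer were called than projected in that group too. With 2 libraries against 2, an exact two-sided permutation test cannot go below p = 0.333, so no test was made between times.

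Of the 857 lost regions 459 (53.6%) were in none of the 4 lists of 30 min and 1 h, 206 were in 1, 128 in 2, 48 in 3 and 16 in all 4. For retained regions, 17 of 3999 were in none and 2305 (57.6%) in all 4, and of the 5734 regions with HA in both 0 h lists 545 (9.51%) and 2462 (42.9%). Calls in between did not follow a strict order, since 146 lost regions had no peak at 30 min and 1 at 1 h, and 52 had none at 30 min and both at 1 h. Where a lost region was still called, its peak was a weak one for that list, with a median fold rank of 37.0 and 36.9 at 30 min and of 32.9 and 44.5 at 1 h. Retained regions had medians of 72.4 and 64.3 at 30 min and of 76.5 and 76.6 at 1 h. The 5 strongest lost regions with no peak at 30 min or 1 h lay in introns of Ccdc138, Eml6 and Ppp1r16b, in an exon of Mdc1, and 9124 bp from Ccdc97. The Mdc1 region, chr17:35848165-35848650, lay 93 bp from the TSS of this DNA damage response gene and held 54 and 58 fragments at 0 h. The Eml6 region, chr11:29777737-29778407, held 52 and 62.

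The share of lost regions with CHD4 was close to that of all HA regions in uninduced cells and lower than it in all 6 later libraries. A CHD4 peak overlapped 9.68% and 28.9% of the lost regions in the 2 libraries at 0 h, against 10.1% and 25.4% of all merged regions. At 30 min the values were 5.83% and 2.92% against 17.0% and 14.0%, at 1 h 4.78% and 3.50% against 22.9% and 20.9%, and at 2 h 3.03% and 10.3% against 17.7% and 36.9%. The 5734 regions with HA in both 0 h lists had higher shares, 26.9% and 51.7% at 0 h and 30.2% and 56.0% at 2 h. In order of time the means were 19.3% ± 13.6, 4.38% ± 2.06, 4.14% ± 0.908 and 6.65% ± 5.12 (SD, n = 2 each). The replicates differed most at 0 h and 2 h, where the CHD4 lists held 2488 and 6000 peaks and 5523 and 9593 peaks, and the larger 2 h value overlapped the smaller one at 0 h. The share itself had no trend with time that passed the test (Spearman's rho = -0.34, exact two-sided permutation p = 0.422, adjusted p = 0.422 over the 6 trends computed, Pearson's r = -0.44, permutation p = 0.321, adjusted p = 0.321, r = -0.68 without the 2 h libraries). With the lists of every target cut to equal length, which also changed the lost regions to 1249, the share fell with time (rho = -0.98, exact two-sided permutation, adjusted p = 0.00159). With the CHD4 lists alone cut and the 857 regions kept it also fell (rho = -0.86, exact two-sided permutation p = 0.0127, adjusted p = 0.0238), from 9.69% and 13.1% at 0 h to 1.05% and 1.75% at 2 h. Under this cut the retained regions went from 32.3% and 32.1% to 23.9% and 27.6%, and all merged regions from 10.1% and 11.3% to 9.34% and 11.1%.

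Counted in both replicates, CHD4 overlapped 64 lost regions at 0 h (7.47%, with 8.2% of all merged regions called), 13 at 30 min (1.52%, against 8.43%), 9 at 1 h (1.05%, against 13.1%) and 13 at 2 h (1.52%, against 13.3%). Of the 64 regions 34 (53.1%) had CHD4 in neither 2 h list, against 242 of 1957 of all merged regions (12.4%) and 82 of 1157 retained regions (7.09%). The share at lost minus retained regions in the same library was -22.6 and -29.3 percentage points in uninduced cells and -37.9 and -60.2 after 2 h (rho = -0.78, exact two-sided permutation p = 0.0349, adjusted p = 0.0419). Part of this change lay in the retained regions, whose mean CHD4 share was 45.2% ± 18.4 (SD, n = 2) at 0 h and 55.7% ± 20.9 at 2 h. Pearson's r was -0.69 (permutation p = 0.0623, adjusted p = 0.0748), and -0.94 without the 2 h libraries. This trend did not pass under a -log10 q of at least 3 (adjusted p = 0.514, exact permutation), a fold of at least 3 (0.132), a 50% overlap (0.099), lists cut to equal length (0.514, also with the CHD4 lists alone cut) or the replicate number as a block (0.0667). It also did not pass without any one of the libraries of 0 h (0.13 and 0.13), of 30 min (0.061 and 0.114) or replicate 2 of 2 h (0.0838).

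The lost regions with CHD4 in the most lists were few, and 533 of the 857 (62.2%) had CHD4 in none of the 8 lists, as had 10822 of all 23856 merged regions (45.4%) and 403 of the 3999 retained regions (10.1%). CHD4 was in all 8 lists at 2 lost regions (0.233%), and at 2.89% of all merged regions. One was chr16:11054572-11055142, in an intron of Litaf and 6088 bp from the TSS of Snn, with CHD4 folds from 3.2 to 4.3 and H3K27ac in all 8 lists. The other, chrX:170000111-170000379 in an intron of Mid1, had a local HA background of 3.82 and 5.19 times the library mean at 0 h, the lowest 0 h rank of all lost regions, and was among the regions whose scaled pileup did not reach the 2 h thresholds. Regions 41736 bp from Atp13a3 and 156 bp from the predicted gene Gm45844 had CHD4 in 7 lists, and 2 had it in 6, one 19018 bp from Rpn1, a subunit gene of the oligosaccharyltransferase, and one 4055 bp from Med13l, a gene of the Mediator kinase module.

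**Figure D3:**
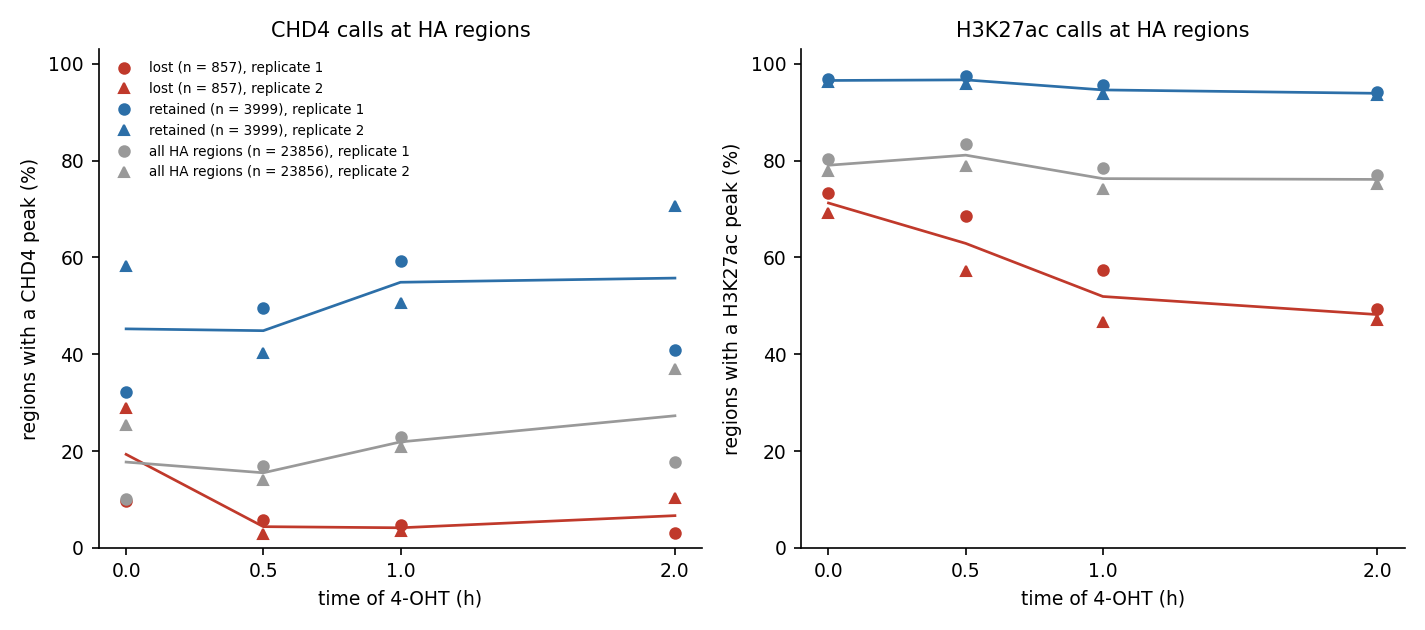
Percentage of lost, retained and all merged HA regions that overlapped a CHD4 peak (left) or an H3K27ac peak (right) in each library, against the time of 4-OHT in hours. Circles are replicate 1, triangles replicate 2 and lines join the means. CHD4 at the lost regions started near all HA regions (10.1% and 25.4%) and lay below them at each later time, and H3K27ac at the lost regions fell from 73.4% and 69.1% to 49.2% and 47.1%.

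H3K27ac calls at the lost regions became fewer over the 2 h. The mark overlapped 73.4% and 69.1% of the lost regions in uninduced cells. After 30 min it overlapped 68.6% and 57.2%, after 1 h 57.3% and 46.6%, and after 2 h 49.2% and 47.1%. The means were 71.2% ± 3.05 (SD, n = 2), 62.9% ± 8.09, 51.9% ± 7.59 and 48.2% ± 1.49, and no 1 h or 2 h library reached either 0 h library. The trend with time passed the test (rho = -0.83, exact two-sided permutation p = 0.0198, adjusted p = 0.0298, r = -0.85, permutation p = 0.00952, adjusted p = 0.0286, r = -0.86 without the 2 h libraries). In the same libraries the retained regions went from 96.5% ± 0.318 to 93.9% ± 0.495 and all merged regions from 79.0% ± 1.76 to 76.1% ± 1.22. The share at lost minus retained regions fell from -25.3 ± 2.74 percentage points in uninduced cells to -45.7 ± 0.990 after 2 h (rho = -0.83, exact two-sided permutation p = 0.0198, adjusted p = 0.0298, r = -0.85, permutation p = 0.00913, adjusted p = 0.0286, r = -0.87 without the 2 h libraries). With any one of the 2 libraries of 0 h or the 2 of 30 min left out, neither trend passed (adjusted p of 0.1 for each 0 h library, 0.061 and 0.0635 for the 30 min libraries, exact permutation). The fall at the lost regions also did not pass when the overlap had to reach 50% (adjusted p = 0.0524, exact permutation), and the difference did not pass with that overlap (0.0524) or a -log10 q of at least 3 (0.0524).

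Both replicates called H3K27ac at 573 lost regions at 0 h (66.9%, with 76.2% of all merged regions called), at 481 at 30 min (56.1%, against 77.8%), at 386 at 1 h (45.0%, against 72.3%) and at 371 at 2 h (43.3%, against 72.6%). Of the 573 regions 137 (23.9%) had H3K27ac in neither 2 h list, against 59 of 3828 retained regions (1.54%) and 672 of 18179 of all merged regions (3.70%). The reverse, no H3K27ac at 0 h and a peak in both 2 h lists, was found at 0 lost regions, 5 retained regions and 248 of all 23856 merged regions. Among the 137 regions, 27 had already no H3K27ac peak in either 30 min list and 77 none in either 1 h list. At lost regions more than 1 kb from a TSS 120 of 444 (27.03%) were without the mark at 2 h, against 498 of 9005 of all such regions (5.53%). At lost promoter regions 17 of 129 (13.2%) were, against 174 of 9174 of all promoter regions (1.90%). Lost regions in none of the 4 HA lists of 30 min and 1 h had the mark in both 0 h lists in 56.2% of cases and were without it at 2 h in 83 of 258 cases (32.2%). Those in 1 of the 4 lists had it at 0 h in 70.9% and were without it in 26 of 146 (17.8%), and those in 2 or more in 88.0% and 28 of 169 (16.6%). The median 0 h fold rank of the mark was 49.6, 63.4 and 65.1 in these 3 classes, and its part in the shares was not tested.

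The lost regions also had weaker H3K27ac peaks at 0 h, so the calls were compared within deciles of the strength of the mark. The median 0 h fold rank of the mark was 57.0 at lost and 80.6 at retained regions with the mark in both 0 h lists. Within the weakest decile by this rank, 95 of 155 lost regions (61.3%) and 44 of 231 retained regions (19.0%) were without the mark at 2 h. In the next decile the shares were 24.0% of 104 and 3.54% of 311, and in the third 19.1% of 68 and 0.872% of 344. In the upper 5 deciles no region of either group lost its calls. With the retained regions weighted by decile to the ranks of the lost ones, their share was 5.92% instead of 1.54%, beside 23.9% for the lost regions. The weakest decile spans ranks 0 to 39.5, so a difference in strength within deciles may remain.

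Strength was also compared over H3K27ac regions called in all 8 lists. A merged H3K27ac region called in all 8 lists touched 382 lost and 3682 retained regions, and its fold was ranked among all 14716 such regions of the genome. Fewer regions, 335 lost and 3647 retained, overlapped an H3K27ac peak themselves in all 8 lists. For the others the ranked peak may lie elsewhere in the merged H3K27ac region. The mean rank of the lost regions was 55.9 and 54.9 in uninduced cells. It was 43.1 and 44.8 after 30 min, 40.8 and 41.9 after 1 h, and 41.5 and 41.1 after 2 h. Each library after 4-OHT lay at least 10 ranks below both 0 h libraries, and most of the difference was present at 30 min. The retained regions had mean ranks of 67.9 and 67.6 at 0 h and of 63.7 and 63.2 at 2 h. The difference between the groups was -12.0 and -12.7 at 0 h and -22.1 and -22.1 at 2 h. No p is given for these means over chosen regions. Folds themselves are not compared between times, because the median fold of the H3K27ac lists was 7.50 and 7.71 at 0 h and 4.36 and 5.19 at 2 h.

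**Figure D4:**
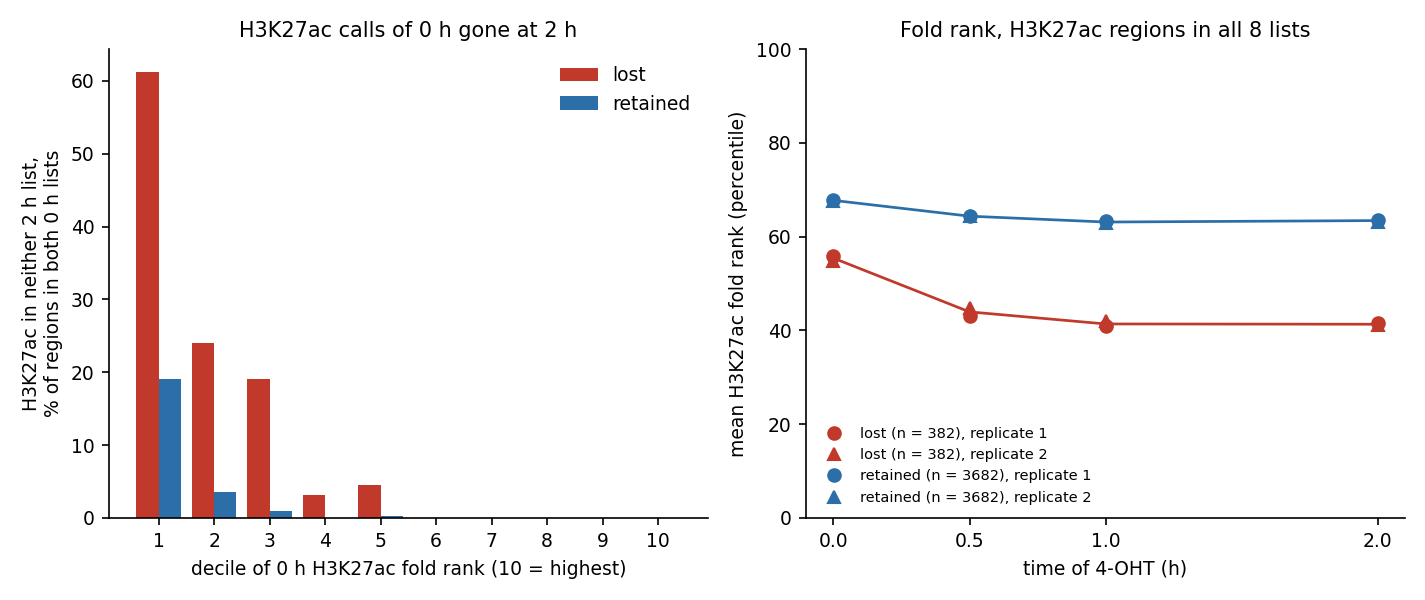
Left, percentage of lost and retained regions with H3K27ac in both 0 h lists that had it in neither 2 h list, in deciles of the 0 h H3K27ac fold rank. Right, mean H3K27ac fold rank in each library against the time of 4-OHT in hours, for HA regions that touch an H3K27ac region called in all 8 lists, with circles for replicate 1, triangles for replicate 2 and lines through the means. In the 3 weakest deciles the lost regions stand at 61.3%, 24.0% and 19.1% and the retained ones at 19.0%, 3.54% and 0.872%, and the mean rank of the lost regions goes from 55.9 and 54.9 to 41.5 and 41.1.

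The 5 strongest HA regions among those that had H3K27ac at 0 h and not at 2 h lay near Hmga1b, Eml6, Mdc1, Fam193b and Bdkrb2. Hmga1b encodes a high mobility group protein that binds AT-rich DNA, and its region, chr11:120762982-120763767, lay in a UTR 268 bp from the TSS. It held 83 and 59 HA fragments at 0 h, with H3K27ac folds of 4.6 and 4.5 there and a further H3K27ac peak in replicate 2 at 1 h. Bdkrb2 encodes a bradykinin receptor, and the region 11564 bp away, chr12:105551006-105552318, held 88 and 130 HA fragments at 0 h. Its H3K27ac folds were 2.5 and 4.8 at 0 h, and no later list called the mark. By contrast, the regions near Colgalt2, Rnf169, Rbpms, Wdr25 and Fam110c, all among the 10 strongest, had H3K27ac in all 8 lists. The Fam110c region, chr12:31153926-31155363, had H3K27ac folds of 41.5 and 30.6 at 0 h.

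Most lost regions lay away from promoters. The middle of 162 of the 857 (18.9%) was within 1 kb of an annotated TSS, against 51.2% of retained, 51.3% of gained and 43.7% of all merged regions. The median distance to a TSS was 6482 bp for lost and 894 bp for retained regions. With retained regions weighted to the 0 h HA ranks of the lost ones their promoter share was 51.7%. Introns held 418 of the lost regions (48.8%), stretches between genes 335 (39.1%), UTRs 53 and other exons 51. Within 3 kb of a TSS the share was 34.5% of lost and 62.2% of retained regions. The nearest other region with HA in both 2 h lists was a median of 34.3 kb from a lost region, 17.6 kb from a retained and 20.6 kb from any merged region, and 15.9% of lost regions had one within 5 kb.

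The nearest protein-coding TSS lay within 50 kb for 712 lost regions and belonged to 650 genes, 2.97% of the 21911 protein-coding genes of the annotation. Retained regions were assigned to 2842 genes in the same way (12.97%), and 223 genes had a region of both kinds, 34.3% of the 650 and 7.85% of the 2842. In all, 54 genes were nearest to 2 or more lost regions and 7 to 3 or more, and 168 lost regions had another within 50 kb. Limch1, which encodes an actin-associated protein, had 4, between 2406 and 27385 bp from its TSS, and Icosl, the ligand of the T-cell costimulator ICOS, had 3. The 2 genes were picked after their values were seen. A nearest gene is a position and is not shown to be a target.

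Among 16 genes of B-lineage transcription factors 6 were nearest to a lost region (37.5%), against 10 with a retained region (62.5%) and 5 with both. They were Ebf1 and Tcf3, which specify the B lineage with Pax5, Irf8, Lef1, Gfi1b and the E protein inhibitor Id3. The Irf8 region, chr8:120763045-120763714, lay 11171 bp from the TSS and held 48 and 53 HA fragments at 0 h. It was called with 10 fragments in replicate 2 at 30 min and 15 in replicate 1 at 1 h. CHD4 was there in both 0 h lists and 1 list of 30 min (folds of 3.4, 3.2 and 3.6) and in none at 1 h or 2 h, and H3K27ac was in all 8 lists. In Ebf1, an intronic region 7933 bp from the TSS, chr11:44919687-44920454, held 39 and 51 fragments at 0 h and 16 in replicate 1 at 1 h. It had CHD4 in 5 lists, both at 0 h, both at 30 min and 1 at 2 h, and H3K27ac in all 8. The region nearest to Id3, chr4:136104740-136105313, lay 38470 bp away, held 45 and 43 fragments at 0 h, and had CHD4 in no list and H3K27ac in 1.

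Of 17 genes of IL-7 receptor and cytokine signalling 4 had a lost region (23.5%), namely Jak1, Stat5a, Socs1 and Socs3, and 9 had a retained one (52.9%). IL-7 drives the growth of pre-B cells through JAK1 and STAT5, and SOCS1 and SOCS3 are feedback inhibitors of cytokine receptors. The 3 strongest of these regions lay between genes near the inhibitors. One was 15700 bp from Socs1, chr16:10769655-10770016, with 32 and 49 fragments at 0 h and no HA call afterwards. The others, chr11:117974146-117975159 and chr11:117959819-117960228, were 4606 and 9162 bp from Socs3 and held 37 and 41 and 24 and 21 fragments at 0 h. The nearer Socs3 region was called with 14 fragments in replicate 2 at 1 h and the farther one with 12 in replicate 1 at 1 h. None of the 3 had CHD4 or H3K27ac in any of the 8 lists of either. By contrast, a lost region 549 bp from the TSS of Stat5a had H3K27ac in all 8 lists and CHD4 in 3. A lost region 4277 bp from that of Jak1 had H3K27ac in all 8 and CHD4 in none.

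The other gene lists held 1 to 3 genes with a lost region. The study chose its fast-repressed genes on samples of the same system, so that list is not independent evidence. Of the 19 genes 2 had a lost region within 50 kb (10.5%), Dntt and Gfra2, both with a retained region as well, and 14 had a retained one (73.7%). Lost regions nearest to Ccnd2 and Ccnd1 (0 h ranks of 96.5 and 86.9) lay 112157 and 108009 bp away, beyond this cut. Dntt encodes terminal deoxynucleotidyl transferase, which adds bases at V(D)J junctions, and was also the only 1 of 9 genes of V(D)J recombination. Its intronic region, chr19:41035419-41036941, held 22 and 23 HA fragments at 0 h and 20 in replicate 2 at 1 h, with CHD4 in 5 lists and H3K27ac in all 8. Of 15 genes of pre-B cell receptor signalling 1 had a lost region, the Src kinase gene Lyn (chr4:3685126-3685572, 44 and 45 fragments at 0 h, 17 and 25 at 1 h), while 12 had a retained region (80.0%). Of 16 cell cycle genes 1 did, Ccnd3, whose cyclin D3 pre-B cells need to expand (chr17:47567204-47567806, 41 and 47 fragments at 0 h and no later HA call). Of 15 adhesion and migration genes 3 did, Itga4, Cd44 and Vcl, and of 13 genes of NuRD subunits 1, Gatad2a, with 23 fragments in each 0 h library. Of 5 genes of the Ikaros family 1 did, Ikzf1 itself, where chr11:11679034-11679566 held 24 and 20 fragments at 0 h and 14 in replicate 1 at both 30 min and 1 h, with H3K27ac in all 8 lists. Of 16 genes of other blood lineages 1 did, Cd4, whose intronic region, chr6:124884984-124885458, held 39 and 37 fragments at 0 h, with no later HA call and no CHD4 or H3K27ac.

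Core words were denser at the summits of lost and retained regions than at those of gained regions. Within 50 bp of the summit, and after taking off the density in flanks 400 to 500 bp away, lost regions held 2.17 of the core words GGAA and GGGA and their complements per 100 bp, retained regions 2.00, gained regions 0.640 and all merged regions 1.08. The same words with their letters reversed, which have equal base composition, gave 0.810, 0.603, 0.237 and 0.359. Away from promoters the density was 2.17 in lost and 1.90 in retained regions. GGAA is also the core of sites of the ETS family, so the words do not name the factor. The windows had a GC content of 55.0% in lost and 57.4% in retained regions, and 9.25% and 8.57% of their bases were masked as repeats.

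**Figure D5:**
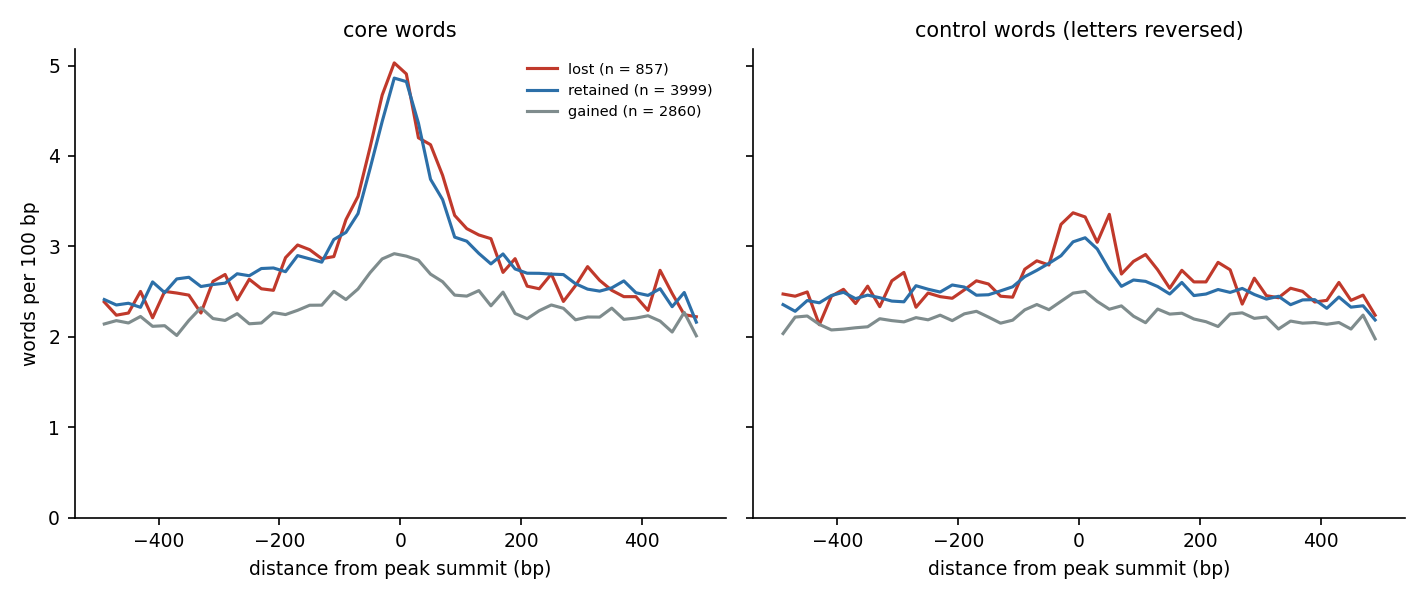
Density of the 4 core words (left) and of the same words with their letters reversed (right), in words per 100 bp and bins of 20 bp, against the distance from the peak summit in bp, for lost, retained and gained regions. The lines of the lost and retained regions rise together around the summit in the left panel, and the line of the gained regions stays lower, as in the mean densities of 2.17, 2.00 and 0.640 above the flanks.

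Longer words were searched on both strands within the same 101 bases, and shares are percentages of windows with at least 1 match. TGGGAA, a longer Ikaros form that holds both GGGA and GGAA, was in 24.2% of lost, 20.3% of retained, 9.79% of gained and 14.4% of all merged regions. GAGGAA, of the kind that PU.1 and its relatives bind, was in 25.9%, 19.8%, 12.4% and 15.7%. The ETS word CCGGAA, common at promoters, was in 3.27%, 8.48%, 6.22% and 5.32%, and both words overlap GGAA. CCCNNGGG, the centre of an EBF1 site, was in 19.8% of lost, 13.4% of retained, 9.20% of gained and 9.39% of all merged regions. Away from promoters it was in 20.7% of lost, 15.1% of retained and 9.27% of gained regions. The E-box CAGCTG was in 14.9%, 10.3%, 8.74% and 8.95%, and the RUNX word TGTGGT in 14.0%, 9.70%, 10.9% and 10.1%. GGGCGG, bound by SP and KLF factors, was in 5.25% of lost and 13.7% of retained regions, and CG in 74.6% and 87.9%. CAGGTG was in 9.22% of lost, 7.05% of retained, 10.2% of gained and 8.62% of all merged regions. AGGNGGC, a part of the CTCF site, was in 9.80%, 11.2%, 10.0% and 9.73%, and TGANTCA, of AP-1, in 3.38%, 2.18%, 2.38% and 2.66%. Lost regions were less often promoters, and away from promoters some of these orders were different. There TGTGGT was in 15.25% of lost, 12.6% of retained and 15.6% of gained regions, CCGGAA in 3.165%, 5.12% and 2.945%, and GGGCGG in 3.74%, 6.76% and 3.52%. The STAT word TTCCNGGAA, the GATA word AGATAA, the forkhead word TGTTTAC and the octamer ATTTGCAT were each in 1.28% of lost regions or fewer. A match is a word in the reference sequence and not a site shown to be bound.

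At the edge of the rule, the 3 lost regions of lowest 0 h rank lay in introns of Rnf213 and Mid1 and in a UTR of 1810062G17Rik, and held 19 and 18, 36 and 35, and 19 and 18 fragments at 0 h. The Mid1 region is the one with the high local background, and it and the 1810062G17Rik region were among the 15 whose scaled pileup did not reach both 2 h thresholds. Just outside the rule, regions called in both 0 h lists and in 1 of the 2 h lists, at the lowest 2 h ranks, lay in an intron of Jak1 and at the TSSs of Zfp981 and Scamp3. They held 30 and 48, 39 and 42, and 20 and 19 fragments at 0 h, and 19, 28 and 14 in the 2 h list of replicate 2, which called all 3.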

How the data were processed

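Reads were paired-end. The authors used Bowtie2 2.4.2 for the alignment to mm10, Picard 2.23.7 for duplicates and MACS2 2.2.7.1 for peaks of each library, in broad mode for CHD4. These steps are described for 0 h, 1 h and 2 h. An mm10 blacklist is named for the signal tracks, which were not used here. Whether the peak lists were filtered by it, the settings for 30 min and the input used for each library are not given in the sources used here. The deposited lists give, for each peak, its fold enrichment (a ratio over local background) and its p-value and q-value as -log10. The lists hold no read counts, so no count model was run. The 8 input libraries were not analysed here.

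Lists were merged at an overlap of at least 1 bp with Python 3.11.15, numpy 2.4.6, pandas 2.3.3 and scipy 1.17.1, and sequences were read with samtools 1.23.1 from RefSeq GRCm38. Genes came from GENCODE M21. Fragments at the summit were recovered from fold and p, which was tested on simulated lists. They were recovered for at least 99.9% of HA peaks under a -log10 p of 40, to within 0.01. The members and gene lists were chosen with earlier results of these data known. Trends over 8 libraries used exact permutation tests over 40320 pairings, with Benjamini-Hochberg adjustment over 6 trends. The 2 trends of the mean rank enter that adjustment and are printed without a p. P-values measure the spread between these libraries, which may be technical. At 2305 HA, 723 CHD4 and 14716 H3K27ac regions, deviations from the means of the times hardly correlated within a replicate number (-0.032 to 0.0901). This check does not cover list lengths or call shares. Replicate 1 had the longer H3K27ac list and the higher H3K27ac share of lost regions at every time.

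Named regions were the 10 of highest mean 0 h rank, up to 3 per gene list, the 5 with most CHD4 lists, the 5 strongest with no HA call at 30 min or 1 h, the 5 strongest that had H3K27ac at 0 h and not at 2 h or the reverse, and 3 on either side of the rule.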

Additional observations from a re-analysis of the deposited data

How the results depend on the processing

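The count of lost regions stayed between 842 and 1249 with a minimum -log10 q of 3 (930), a minimum fold of 3 (879), a 50% overlap (888), lists of equal length (1249), merging only the 0 h and 2 h lists (890), and keeping only regions with a projected 2 h call (842). With the lists of 1 replicate only, the rule gave 2083 to 2613 regions, of which 284 to 594 were called at 30 min and 771 to 895 at 1 h in that replicate. With lists of equal length 154 lost regions were called in both 30 min lists. For the CHD4 share at lost regions rho was -0.976 with lists of equal length (adjusted p = 0.00159, exact permutation), -0.859 with only the CHD4 lists cut, an alternative chosen after seeing the data (adjusted p = 0.0238), and -0.698 to -0.0367 with 1 library left out. For CHD4 at lost minus retained regions rho was -0.293 with a -log10 q of at least 3, -0.634 with a minimum fold of 3, -0.683 with a 50% overlap and -0.293 with lists of equal length, of every target or of CHD4 alone, and -0.973 to -0.679 with 1 library left out. With the replicate block, rho was -0.781 with an adjusted p of 0.0667 (exact permutation), which ended the call. The block changed no other call. For H3K27ac rho was -0.781 with a 50% overlap, both at lost regions and for the difference, and -0.781 for the difference with a -log10 q of at least 3. With 1 library left out it was -0.918 to -0.753 for both. The cause of these changes was not tested. The promoter share was 34.5% within 3 kb. The core word density was 1.73 with 100 bp either side, and 0.810 for the reversed words. The share of H3K27ac calls gone at 2 h, lost minus retained, was 22.4 percentage points and 17.99 with retained regions weighted by their 0 h H3K27ac rank, an alternative chosen after seeing the data. The mean H3K27ac rank of lost regions at 2 h minus that at 0 h was -14.6 to -13.6 with 1 library left out, and -10.1 to -9.45 relative to retained regions. Other alternatives kept their direction and side of the threshold. Coverage of 1.98 to 3.59 fragments per base limits the HA calls to summits of 9 to 13 fragments or more, and the depth of the CHD4 lists is unknown.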
